A study of Mus musculus with 8 samples.

Results

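Neurexins and neuroligins join the presynaptic and postsynaptic sides of brain synapses, and Cntnap2 is a relative of the neurexins. The Argonaute-bound RNA of 6 of these genes in mouse forebrain is described here: Nrxn2, Nrxn3, Nlgn1, Nlgn2, Nlgn3 and Cntnap2. A cluster, a stretch of overlapping reads from RNA crosslinked to Argonaute, was counted for a gene when the gene's exact symbol stood in any of the deposited table's 5 gene columns (3' UTR, CDS, 5' UTR, antisense or intron). By this rule the 6 genes, of 10728 genes named in the table, held 500 of its 70142 clusters and 12540 of its 1834586 reads. None of the 500 clusters named a second gene, and all 500 lay inside the annotated span of the gene they named.

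FLAG-Ago HITS-CLIP, which crosslinks RNA to Argonaute with ultraviolet light, precipitates a Flag-tagged Argonaute and sequences the RNA held by it, was used to look for miRNA seed targeting in Camk2a neurons. Per the labels, all 8 libraries came from mice with the Rosa-Stopfl/fl-Flag-Ago2 allele, whose Flag-Ago2 is made after Cre acts. In the 5 libraries of the Flag-Ago2 group the mice also carried Camk2a-cre, which places Cre under the Camk2a promoter, and in the 3 control libraries they carried no Cre. All mice were 8 to 14 weeks old, and forebrains were irradiated 3 times at 400 mJ/cm2. The titles number the libraries of each group from 1 to 3, with the letters a and b where Flag-Ago2 libraries share a number. They do not say whether a number stands for an experiment or what a letter stands for. The table gives 1 read count per cluster for the whole study, with at least 10 reads in each, so no value below has a replicate check, a depth per library or a control value, and a gene listed at 0 has no cluster of at least 10 reads that names it.

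A neurexin sits in the presynaptic membrane and binds neuroligins, leucine-rich repeat proteins, latrophilins and cerebellins across the synaptic cleft. Each neurexin gene makes long alpha and shorter beta proteins from separate promoters, and alternative splicing of both changes which partners are bound. Nlgn1 protein is found mainly at excitatory synapses, Nlgn2 at inhibitory synapses and Nlgn3 at both. Cntnap2 encodes Caspr2, which gathers voltage-gated potassium channels beside the nodes of myelinated axons. Argonaute carries a miRNA whose bases 2 to 8, the seed, pair with a target RNA, most often in the 3' UTR, where the pairing lowers mRNA stability and translation. Argonaute reads in a gene therefore depend on how much of its RNA is present as well as on how strongly it is bound, and in whole forebrain more cells that make an RNA and more RNA per cell cannot be told apart.

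The seeds of the sites printed after them are shown first, so that each site can be read against its miRNA. The mature mouse miRNAs are from RefSeq (GRCm38.p6), written 5' to 3' with the seed, bases 2 to 8, in capitals. miR-27 and miR-128 have seeds that overlap when shifted by 1 base, so a single site can match both.
miR-125b-5p: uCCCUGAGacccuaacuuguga
miR-27b-3p: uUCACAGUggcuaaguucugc
miR-128-3p: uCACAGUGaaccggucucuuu
miR-24-3p: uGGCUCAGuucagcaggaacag
miR-7a-5p: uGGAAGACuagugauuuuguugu
miR-103-3p: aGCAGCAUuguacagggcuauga
miR-138-5p: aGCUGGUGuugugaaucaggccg
miR-101a-3p: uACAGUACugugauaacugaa
miR-34a-5p: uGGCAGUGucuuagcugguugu
miR-181a-5p: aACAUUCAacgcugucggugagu
miR-222-3p: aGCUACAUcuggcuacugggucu

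Target sites follow in the sense of the mRNA, 5' to 3', from GENCODE M21 transcripts on GRCm38 (mm10), each as 30 bases with 12 on either side of the match. Capitals mark the 6 bases that pair with miRNA bases 2 to 7, which is the match that the table counts. A site is called a 7-mer-m8 when base 8 pairs too, a 7-mer-A1 when an adenine follows the match, and an 8-mer with both. The first 8 are all the matches read from sequence in the deepest 3' UTR cluster of Nlgn2, of Nrxn2 and of Nrxn3. The other 7 are 8-mers, chosen after their values were seen, and with the miR-103/miR-107 site of Nrxn3 they are all the 8-mers read from sequence in the exonic clusters of these genes and in the unnamed 3' UTR clusters described below.
Nlgn2 3' UTR, miR-125, chr11:69823743-69823772 (-): ggaagggaggagTCAGGGaaaaaggttaca
Nrxn2 3' UTR, miR-138, chr19:6533012-6533041 (+): tgcgtctgtggcACCAGCtagctgcaggtg
Nrxn2 3' UTR, miR-103/miR-107, chr19:6532878-6532907 (+): tgtgtgtgtcgcTGCTGCcgggcaacgtgc
Nrxn3 3' UTR, miR-24, chr12:90332581-90332610 (+): tctgtgtaatggTGAGCCatgctgcaaggt
Nrxn3 3' UTR, miR-103/miR-107, chr12:90332588-90332617 (+): aatggtgagccaTGCTGCaaggttgtagcc
Nrxn3 3' UTR, miR-27, chr12:90332496-90332525 (+): gttgaatgtgttCTGTGAgatggggtgtac
Nrxn3 3' UTR, miR-181, chr12:90332487-90332516 (+): atttaacttgttGAATGTgttctgtgagat
Nrxn3 3' UTR, miR-221/miR-222, chr12:90332599-90332628 (+): atgctgcaaggtTGTAGCcttggcccgaag
Nlgn2 3' UTR, miR-7, chr11:69823458-69823487 (-): agtggggtgctgTCTTCCactgacacccag
Nrxn2 5' UTR, miR-27, chr19:6427912-6427941 (+): gagtccatggcaCTGTGAatcggcgaggga
Nrxn2 5' UTR, miR-128, chr19:6427911-6427940 (+): tgagtccatggcACTGTGaatcggcgaggg
Nrxn3 CDS, miR-27, chr12:89510485-89510514 (+): cgacatcgactaCTGTGAactgaaggctcg
Cntnap2 CDS, miR-27, chr6:47049325-47049354 (+): ctatggggctaaCTGTGAaaatggaggcaa
Nrxn2 CDS, miR-34, chr19:6517120-6517149 (+): agtgctgagaccACTGCCaccactctgctg
Nlgn3 3' UTR, miR-101, chrX:101322128-101322157 (+): accagtgcaaggTACTGTatacaaagattg

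The 6 genes split by where Argonaute lay along them. Counted by name, Nlgn2 was read almost wholly in exons, with 264 of its 274 reads in 3' UTR and CDS clusters. Nrxn3, Nlgn1 and Cntnap2 were read almost wholly in introns, with 241 of 254, 127 of 131 and 73 of 81 clusters in introns only. Nrxn2 and Nlgn3 stood between, with 10 of 20 and 3 of 6 clusters in introns only. Over the 6 genes, 455 of 500 clusters (91.0%) and 90.0% of the reads were intronic, against 46.6% of clusters in the whole table. The whole table includes 12108 clusters (17.3%) that name no gene, so 46.6% is a low figure for clusters that name one. The 31 exonic clusters held 1008 reads, 8.04% of the genes' reads, in 10 3' UTR clusters with 379 reads, 18 CDS clusters with 498 reads and 3 5' UTR clusters with 131 reads.

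Every one of the 6 genes had at least 1 exonic cluster, which 35.7% of 21924 annotated protein-coding genes had. All 6 had a CDS cluster (26.9% of protein-coding genes) and an intron-only cluster (28.0%). A 3' UTR cluster was named for 3 of the 6, Nrxn2, Nrxn3 and Nlgn2 (21.5%), a 5' UTR cluster for Nrxn2, Nrxn3 and Nlgn1 (3.29%), and an antisense cluster for Nrxn2, Nrxn3, Nlgn1 and Cntnap2 (7.94%). Many protein-coding genes are silent in forebrain, so these shares are a low baseline for genes expressed there.

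The exonic share of clusters was 87.5% for Nlgn2 (95% Wilson interval 52.9 to 97.8), 50.0% for Nlgn3 (18.8 to 81.2), 40.0% for Nrxn2 (21.9 to 61.3), 3.15% for Nrxn3 (1.60 to 6.09), 2.47% for Cntnap2 (0.680 to 8.56) and 2.29% for Nlgn1 (0.782 to 6.52). The first 3 are the short genes, with spans of 14.7, 26.8 and 125 kb, and the last 3 the long ones, with 1612, 2245 and 906 kb, so the share goes with gene span and is not a test of a difference between genes. The intervals treat the clusters of a gene as independent and cover counting error only, and the reads behind them were amplified by PCR with no molecular identifiers described in the labels.

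Scaled to the spliced length of the longest annotated coding transcript, exonic reads stood at 47.4 per kb for Nlgn2, 41.1 for Nrxn2, 28.8 for Nrxn3, 9.13 for Nlgn3, 8.85 for Cntnap2 and 6.52 for Nlgn1. The 3 genes with a named 3' UTR cluster were the 3 highest per kb, but the reads of those clusters are part of the values ranked. With the unnamed 3' UTR clusters described below, Nlgn3 stood at 25.3 per kb. With 1 pooled count per gene there is no spread by which neighbours in this order can be separated.

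**Figure D1:**
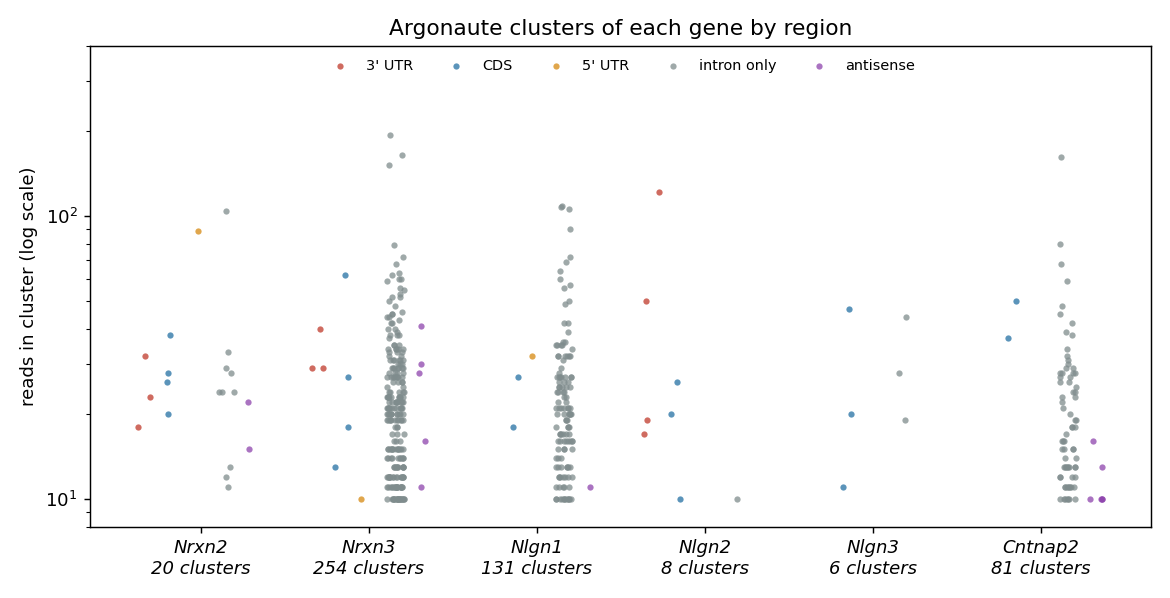
Reads in each of the 500 clusters (log scale) for the 6 genes, coloured by region, with each point standing for 1 cluster of the pooled table. Introns supply nearly all clusters of Nrxn3, Nlgn1 and Cntnap2, whereas the deepest cluster of Nlgn2, with 122 reads, lies in its 3' UTR.

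Nlgn2, the neuroligin of inhibitory synapses, carried the deepest exonic cluster of the 6 genes. Its 4 3' UTR clusters held 122, 50, 19 and 17 reads, and together they covered 40.1% of a 3' UTR of 2081 bases. The 122-read cluster (chr11:69823734-69823850, minus strand, exon 8) began 1353 bases after the stop codon and held a single match to the miRNA families listed for brain, the 7-mer-A1 for miR-125 printed above, 35 bases from the cluster's centre. This cluster supplied 44.5% of all Nlgn2 reads.

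The 50-read cluster (chr11:69823122-69823512) ran to the last base of the annotated Nlgn2 transcript and was the richest of the 3' UTR clusters in matches. It held 6 matches, of which 1 was the 8-mer for miR-7 shown above and 1 was a 7-mer-m8 for miR-24 at the cluster's centre. The other 4 were for miR-24 again, miR-29, miR-124 and miR-132/miR-212. The 19-read cluster lay 47 bases after the stop codon with a 7-mer-A1 for miR-26, and the 17-read cluster held a miR-124 match. Coding exons 8, 7 and 6 of Nlgn2 carried clusters of 26, 20 and 10 reads. The only intron-only cluster that names Nlgn2 had 10 reads and lay 115 bases from an exon.

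Nlgn3, which is found at both kinds of synapse, had no 3' UTR cluster by name but did have clusters in its 3' UTR by position. Its named exonic clusters were in coding exons 7, 6 and 8, with 47, 20 and 11 reads. A further 5 clusters, with 44, 40, 25, 19 and 10 reads (138 reads), named no gene and lay on the same strand inside the Nlgn3 3' UTR of GENCODE M21, between 1718 and 5366 bases after the stop codon. The RefSeq span of Nlgn3 on GRCm38.p6 ends at base 101321350 of the X chromosome, and the first of the 5 clusters starts at base 101321980, so all 5 lie past it. Counting them raises Nlgn3 from 3 to 8 exonic clusters and from 78 to 216 exonic reads, or from 9.13 to 25.3 exonic reads per kb of transcript.

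The distal Nlgn3 clusters held 8 matches when their sequence was searched for 27 families, and none of the 8 was a bare 6-mer: 1 was the 8-mer for miR-101 printed above, 4 were 7-mer-m8 and 3 were 7-mer-A1 sites. In the 40-read cluster, which ends 5366 bases after the stop codon, a 7-mer-m8 for miR-15/16 and a 7-mer-m8 for miR-103/miR-107 overlapped. By the deposited column this cluster also held 1 match for miR-124, a family outside the 27, and the type of that match was not read. The 44-read cluster also held 7-mer-A1 sites for miR-24 and miR-26. The gene Gm21986, a processed transcript annotated on the same strand, spans the named clusters of Nlgn3 that lie in exons 6, 7 and 8 and in its introns, and reads of the pair cannot be separated there.

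Nlgn1, the excitatory neuroligin, has the longest 3' UTR of the 6 reference transcripts, 7423 bases, and no cluster lay in it, named or unnamed, although the sequence holds 64 matches of the 27 families. Its exonic reads came from a 5' UTR cluster of 32 reads at the gene's first exon (chr3:26331261-26331534, minus strand) and 2 clusters of 27 and 18 reads in coding exon 7. The 5' UTR cluster held a 7-mer-m8 for miR-7 and 2 6-mers for miR-24, and it lies opposite the antisense gene A830092H15Rik. The exon 7 clusters both carried a circRNA identifier, the table's tag for an overlap with a listed circular RNA, and the 18-read cluster held a 7-mer-m8 for miR-30.

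**Figure D2:**
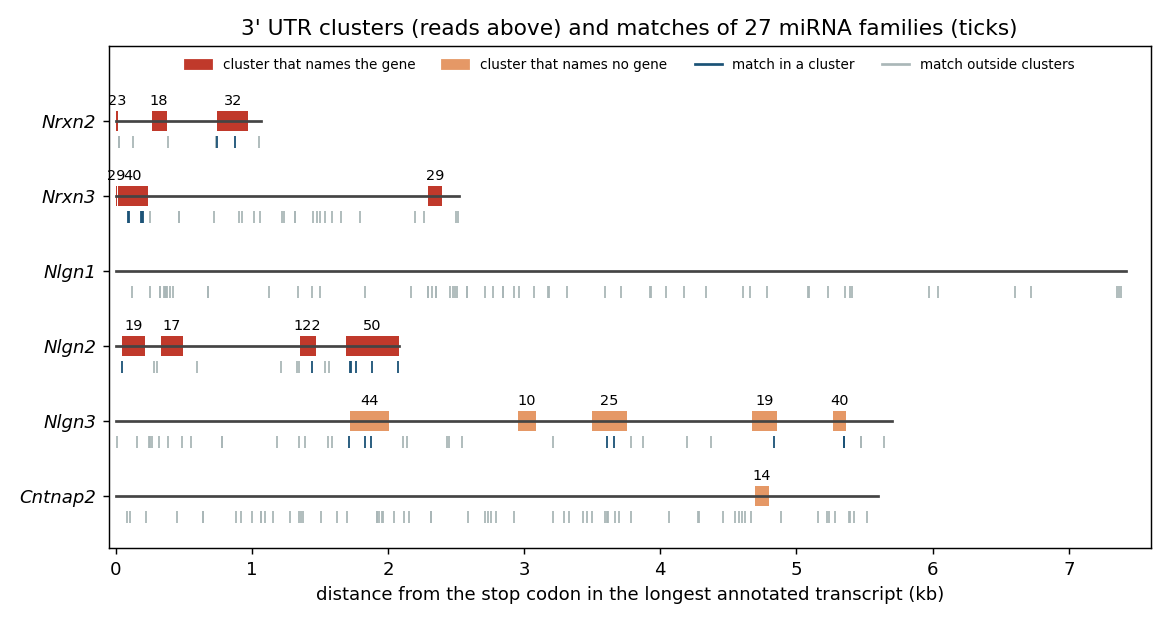
Clusters (boxes, reads written above) and 6-base matches of 27 miRNA families (ticks) along the 3' UTR of each reference transcript, in kb from the stop codon. The 7423 bases of Nlgn1 hold 64 matches and no cluster, and the 5 clusters of Nlgn3 name no gene in the table.

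Cntnap2 likewise had no named 3' UTR cluster. A single cluster of 14 reads with no gene name lay 4693 bases after the stop codon of its 5599-base 3' UTR, past the RefSeq gene end at base 47301393 of chromosome 6, and covered 1.89% of the 3' UTR. None of the 66 family matches in the Cntnap2 3' UTR lay in it. Its exonic reads came from exon 18 (50 reads, chr6:47049203-47049388, plus strand) and exon 17 (37 reads, chr6:47021562-47021671). The exon 18 cluster held the miR-27 8-mer printed above with the overlapping miR-128 7-mer-A1, a 7-mer-m8 for miR-138 and a 6-mer for miR-26. The exon 17 cluster held no match.

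Nrxn2 and Nrxn3, the neurexins described here, had both 3' UTR and 5' UTR clusters. Nrxn2 carried 89 reads in a 5' UTR cluster (chr19:6427827-6427982, plus strand, exon 2), its deepest exonic cluster and the deepest of the 3 5' UTR clusters, ahead of 32 reads for Nlgn1 and 10 for Nrxn3. In it the miR-27 8-mer printed above, shifted by 1 base, is also an 8-mer for miR-128, and the cluster held a match each for miR-24 and miR-124. GC made up 76.9% of this cluster. The clusters that the table places in the 3' UTR of Nrxn2 held 32, 23 and 18 reads, and the CDS clusters 38, 28, 26 and 20 reads. The 23-read cluster is mostly coding, with 19 of its 283 bases after the stop codon, and its miR-103/miR-107 match lies in coding sequence. The 38-read cluster in exon 21 held the 8-mer for miR-34 shown above.

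Nrxn3 had its deepest exonic cluster in coding exon 11 (62 reads, chr12:89510447-89510625, plus strand). With 8 matches of 7 families it was the exonic cluster with the most matches among the 6 genes, and they included the miR-27 8-mer printed above overlapped by a miR-128 7-mer-A1 and a miR-101 6-mer. The clusters that the table places in the 3' UTR of Nrxn3 held 40, 29 and 29 reads. The 29-read cluster nearest the stop codon runs across it and has 8 of its 248 bases in the 3' UTR of the reference transcript, and its matches for miR-15/16 and miR-103/miR-107 lie in coding sequence. The 40-read cluster began 17 bases after the stop codon and held 5 matches, among them the 8-mer for miR-103/miR-107 and the 7-mer-A1 for miR-24, whose 6-base matches start 7 bases apart, and a 7-mer-m8 for miR-181. The 3 CDS clusters other than exon 11 held 27, 18 and 13 reads in exons 1, 7 and 4.

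The paired miR-27 and miR-128 site thus lay in an exonic cluster of 3 of the 6 genes, in the 5' UTR of Nrxn2, in the CDS of Nrxn3 and in the CDS of Cntnap2, and in no 3' UTR cluster of the 6. In each case the miR-27 match was an 8-mer. The overlap forces part of this, because the adenine that opens the miR-128 match is the base that pairs with miR-27 base 8. The adenine that ends the miR-27 match likewise follows the miR-128 match. Only the adenine after the miR-27 match is not set by the overlap. The 3 clusters were the deepest exonic clusters of their genes. The paired site was not counted over other exonic clusters or genes, so 3 of 6 genes cannot be called high or low. The site was picked out after its values were seen, and the 6-base match of miR-27 is shared by miR-673-5p and miR-6985-3p, which the table cannot separate from it.

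By family, miR-24 was the most frequent of the 28 listed families in the exonic clusters, with 8 matches in 6 of the 31 clusters. Nrxn2, Nrxn3, Nlgn1 and Nlgn2 had 2 each. Most of the miR-24 matches read from sequence were bare 6-mers. The 6-base match of miR-24 is shared by miR-5124b, miR-6369, miR-6410 and miR-6413. miR-7, miR-27, miR-103/miR-107 and miR-124 had 5 matches each. Those of miR-103/miR-107 were in Nrxn2 (3) and Nrxn3 (2), while those of miR-124 were in Nlgn2 (3), Nrxn2 (1) and Nlgn3 (1). No exonic cluster of the 6 genes held a match for let-7, miR-99/100, miR-137, miR-153 or miR-218. Shares over other exonic clusters were not worked out for single families, so no family's count here can be called high or low. In all, 24 of the 31 clusters (77.4%) held at least 1 match, against 77.0% of the other 23107 exonic clusters, and matches stood at 11.2 and 11.5 per kb of cluster, so both values lay close to those of other exonic clusters. Of 51 matches whose sequence could be read, 22 were bare 6-mers, 8 were 7-mer-A1, 14 were 7-mer-m8 and 7 were 8-mers.

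Set beside the whole 3' UTR of the same gene, clusters held 7 of 15 matches for Nlgn2 over 40.1% of its 3' UTR, 5 of 28 for Nrxn3 over 13.1%, 2 of 8 for Nrxn2 over 33.3% and, with the unnamed clusters, 8 of 37 for Nlgn3 over 968 of 5701 bases. As densities, matches stood at 15.1 per kb in clusters against 11.1 per kb in the whole 3' UTR for Nrxn3, 8.38 against 7.21 for Nlgn2, 8.26 against 6.49 for Nlgn3 and 5.62 against 7.48 for Nrxn2. The single unnamed cluster of Cntnap2, over 106 bases, held 0 of 66 matches, or 0 against 11.8 per kb. The cluster density was the higher value in 3 genes and the lower value in Nrxn2 and Cntnap2. These counts cover the 27 families searched in sequence, without miR-124. They rest on 0 to 8 matches per gene and were not tested.

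CDS clusters of the 6 genes often carried a circRNA identifier. It was attached to 10 of 18 CDS clusters (55.6%), against 26.7% of CDS clusters in the whole table, and to 15 of 455 intron-only clusters (3.30%), against 15.0%. The 10 were the 4 CDS clusters of Nrxn2, the 4 of Nrxn3 and the 2 of Nlgn1. Nlgn2, Nlgn3 and Cntnap2 had none in any region. Reads from a circular RNA and from the linear mRNA of the same exon cannot be told apart in the table.

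Introns held the bulk of the reads of the long genes. Nrxn3 had the third highest number of clusters of all genes named, Nlgn1 ranked 16 and Cntnap2 ranked 46. Per 100 kb of annotated gene span, intron-only clusters stood at 14.9 for Nrxn3 (span 1612 kb), 14.0 for Nlgn1 (906 kb), 11.2 for Nlgn3 (26.8 kb), 7.97 for Nrxn2 (125 kb), 6.82 for Nlgn2 (14.7 kb) and 3.25 for Cntnap2 (2245 kb). The median over 6139 protein-coding genes with an intron-only cluster was 4.55, with quartiles of 2.42 and 8.09. The value of Nlgn2 rests on 1 cluster and that of Nlgn3 on 3.

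Genes of like span differed in their number of intronic clusters. Among 230 protein-coding genes longer than 500 kb, whose median was 2.83 per 100 kb, Nrxn3 ranked 10 and Nlgn1 ranked 16 in density. Cntnap2 ranked 5 in span among them, ahead of Nrxn3 at 11, and had 73 intron-only clusters where Nrxn3 had 241. Of the 6139 genes with an intron-only cluster, 92.6% lay below the density of Nrxn3, 91.3% below that of Nlgn1 and 35.3% below that of Cntnap2.

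**Figure D3:**
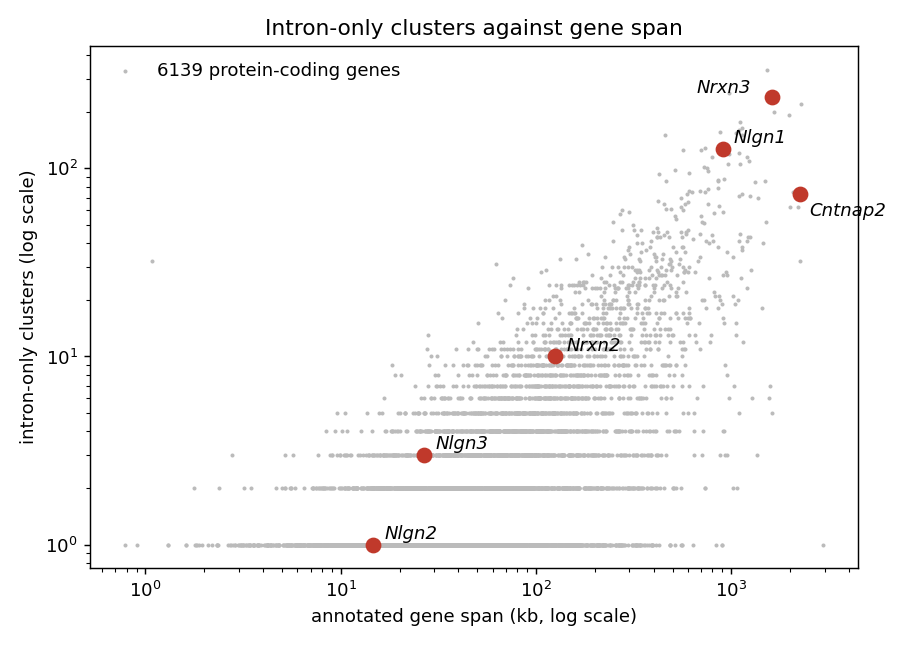
Intron-only clusters against annotated gene span (both axes log scale) for 6139 protein-coding genes with at least 1 such cluster (grey), with the 6 genes in red. Nrxn3, with 241 clusters, and Nlgn1, with 127, lie near the upper edge of genes of their span, and Cntnap2, with 73, lies below them at a longer span.

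Within each long gene the clusters gathered in its longest introns. Intron length came to 1533 kb in Nrxn3, 894 kb in Nlgn1 and 2234 kb in Cntnap2, so part of the gathering goes with intron length. In Nrxn3, introns 3 (337 kb) and 14 (443 kb) of the longest transcript held 81 and 97 clusters, together 178 of 241 (73.9%), at 24.1 and 21.9 per 100 kb, while 7 of 19 introns held none. In Nlgn1, intron 5 (473 kb) held 99 of 127 clusters (78.0%) at 20.9 per 100 kb. In Cntnap2, intron 1 (594 kb) held 44 of 73 clusters (60.3%) at 7.41 per 100 kb, and 15 of 23 introns held none. These introns of Nrxn3 and Nlgn1 were thus near each other in density, and that of Cntnap2 lay below them. The introns of Nrxn3 without a cluster were short, the longest of them 19.8 kb.

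In the long genes intronic clusters were far from exons. Over the 6 genes, 11 of 455 lay within 500 bases of an exon of a coding transcript, and the median distance was 56.6 kb. The median was 108 kb in Nlgn1, 89.4 kb in Cntnap2, 40.1 kb in Nrxn3 and 1.62 kb in Nrxn2. In the short genes the intron-only clusters lay close to exons, with a median of 0.459 kb over the 3 of Nlgn3 and 0.115 kb for the single one of Nlgn2. Their median depth was 20 reads in Nrxn3, 20 in Nlgn1 and 17 in Cntnap2.

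A few intronic clusters were deep. Nrxn3 had clusters of 194 reads (chr12:90225698-90225807, intron 18), 164 reads (chr12:90197288-90197449, intron 16) and 152 reads (chr12:89692034-89692162, intron 14), all deeper than any exonic cluster of the 6 genes. The 194-read cluster held no match of the 28 families, the 164-read cluster held matches for miR-22, miR-24 and miR-128, and the 152-read cluster held 2 for miR-29. Nlgn1 had 3 clusters of 109, 108 and 106 reads in introns 3, 5 and 3, the first with a match for miR-132/miR-212, the second with none and the third with 1 for miR-23. Nrxn2 had 104 reads in its last intron (chr19:6529422-6529644), 1624 bases from the nearest coding-transcript exon, with matches for miR-15/16, miR-23 and miR-128.

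The deepest cluster of Cntnap2, with 162 reads (chr6:47045401-47045605, intron 17), lay over Gm6352, a processed pseudogene on the same strand. With 2 further clusters of 48 and 23 reads over Gm6352 it made up 233 reads, 13.5% of the intronic reads of Cntnap2, which leaves 1488 without them. Reads of Cntnap2 and of Gm6352 cannot be told apart there. The next deepest intronic clusters of Cntnap2 held 80 and 68 reads and lay in intron 1.

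**Figure D4:**
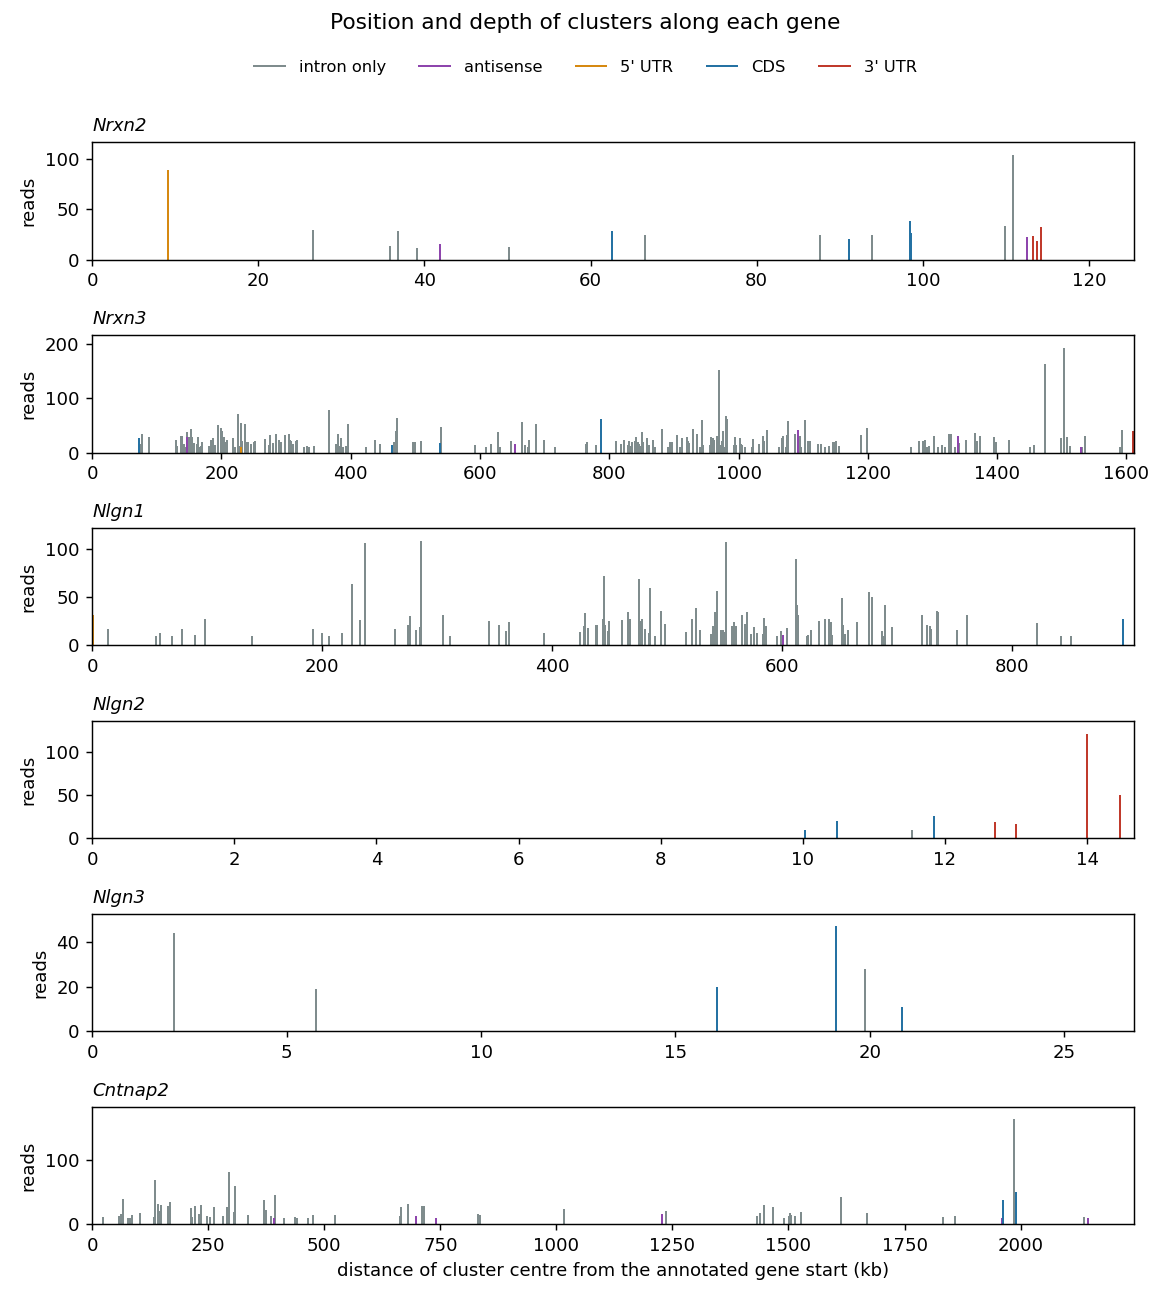
Clusters along each gene, placed by the distance of their centre from the annotated gene start (kb) and drawn to the height of their reads, coloured by region. Clusters of Nrxn3, Nlgn1 and Cntnap2 gather in long introns, and in Nlgn2 the reads rise at the 3' end, where the 122-read cluster lies.

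Inside introns of at least 200 kb the clusters thinned toward the 3' end. Divided into 4 equal parts from the 5' to the 3' end, the 7 such introns of Nrxn3, Nlgn1 and Cntnap2 held 126, 132, 74 and 28 of 360 clusters, or 35.0%, 36.7%, 20.6% and 7.78%. The last part held the fewest clusters in each gene: 16 of 178 in Nrxn3, 6 of 118 in Nlgn1 and 6 of 64 in Cntnap2. In 207 introns of 159 other protein-coding genes the 4 parts held 1989, 1660, 1239 and 640 of 5528 clusters, the last part (11.6%) again the emptiest, so the thinning was not particular to these genes. In Nlgn1 the second part was the fullest, with 52 clusters against 39 in the first.

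**Figure D5:**
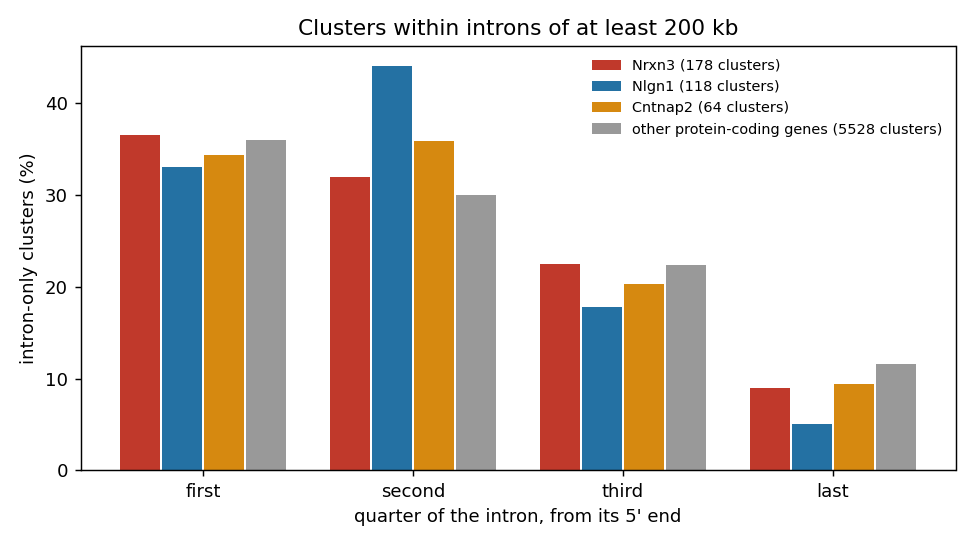
Share of intron-only clusters (%) in each of 4 equal parts of introns of at least 200 kb, from the 5' end, for Nrxn3, Nlgn1, Cntnap2 and other protein-coding genes. All 4 sets hold their lowest share in the last part, from 5.08% in Nlgn1 to 11.6% in the other genes.

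In the intron-only clusters of the 6 genes the most frequent families were miR-128, with a match in 48 of 455 clusters (10.5%, against 11.6% of 32249 other intron-only clusters), miR-129 (43 clusters, 9.45% against 5.35%) and miR-27 (39 clusters, 8.57% against 10.5%). The miR-129 matches were most frequent in Nlgn1, with 21 of 127 clusters (16.5%), and stood at 6.64% in Nrxn3 and 8.22% in Cntnap2. miR-24, which had the most matches in the exonic clusters of the 6 genes, had a match in 1.76% of their intron-only clusters. Of other intron-only clusters 4.88% had one. Matches in clusters that share a gene and base composition are not independent, and these differences were not tested.

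Antisense clusters were few and shallow, as in the whole table: 5 in Nrxn3 with 126 reads, 6 in Cntnap2 with 69, 2 in Nrxn2 with 37 and 1 in Nlgn1 with 11. They made up 2.80% of the clusters of the 6 genes, with a median of 14 reads. Of all clusters in the table, with or without a gene name, 3.13% were antisense, also with a median of 14 reads. The deepest had 41 reads and lay opposite intron 14 of Nrxn3 (chr12:89815062-89815196, minus strand), 1422 bases from the nearest exon. The 22-read antisense cluster of Nrxn2 lay over the annotated antisense gene Gm14964.

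Of 50 genes listed as partners, relatives or regulators of these genes and their proteins, 39 (78.0%) had an exonic cluster, against 35.7% of protein-coding genes. The list's median was 59.5 exonic reads, with its 11 genes at 0 included. The median was 49.0 among the protein-coding genes with an exonic cluster, which leaves out genes at 0. It was 0 among all of them, which takes in genes silent in forebrain, so neither is a like set. Among ligands and receptors of neurexins 12 of 18 had an exonic cluster. The reads given for these genes are not scaled to length, so they show no order between genes. The 3 with the most reads were Clstn3 (482 reads), a calsyntenin, and the latrophilins Adgrl1 (336) and Adgrl2 (120). The cerebellins Cbln1 and Cbln4, secreted bridges between neurexins and their receptors, had no cluster, and neither did Nxph4 and C1ql2. Lrrtm3 and Igsf21 had 11 and 4 intron-only clusters and no exonic cluster.

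Among partners and regulators of neuroligins 10 of 11 had an exonic cluster. The 3 with the most reads were Igsf9b (494 reads), an adhesion protein of inhibitory synapses, and the postsynaptic scaffolds Shank1 (260) and Shank3 (187). Igsf9b had 13 3' UTR clusters and Shank1 had none. Of the presynaptic scaffold genes 5 of 6 had an exonic cluster, and those with the most reads were Apba1 (407), Apba2 (265) and Lin7a (148). Cask, which binds the neurexin tail, had 1 intron-only cluster and no exonic cluster.

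The Cntnap2 list had exonic clusters in 10 of 12 genes. The potassium channels Kcna2 (443 reads) and Kcna1 (364), which Caspr2 gathers, had 11 and 9 3' UTR clusters and no intron-only cluster, in genes that span 13.9 and 5.99 kb, and Cntn1, a contactin, had 353 exonic reads. Cntnap5b and Cntnap5c, relatives of Cntnap2, had 7 and 5 intron-only clusters and no exonic cluster. Of the 3 RNA-binding proteins that regulate neurexin splicing, Khdrbs3 (50 reads) and Khdrbs1 (35) had exonic clusters and Khdrbs2 had 12 intron-only clusters and no exonic cluster.

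The genes nearest to each member in the division of clusters over the 5 regions, by Euclidean distance among genes with a similar number of clusters, were Camk2b and Kif3c for Nrxn2 (1254 genes compared), Csmd1 and Asic2 for Nrxn3 (17), Grin2a and Fam155a for Nlgn1 (67) and Macrod2 and Dpp10 for Cntnap2 (140). For Nrxn2, 3 genes lay at or below the distance of Kif3c, so the place of Kif3c was a tie. For Nlgn2, Mllt6 and R3hdm4 were among 3 genes at a distance of 0 (2742 compared). For Nlgn3, 25 genes tied at 0, so no nearest gene can be named. Csmd1 had 200 of its 211 clusters in introns only and Grin2a 93 of 96.

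The labels name Camk2a neurons as the cell type. Of 21924 annotated protein-coding genes, 35.7% had an exonic cluster, a low baseline for genes expressed in forebrain. The marker lists hold 6 genes each and were not tested against it. Excitatory neuron markers had an exonic cluster in 6 of 6 genes (20 to 618 reads, with Camk2a at 618), and so did astrocyte markers in 6 of 6 (80 to 1105 reads), oligodendrocyte markers in 5 of 6 (0 to 298), endothelial markers in 4 of 6 (0 to 169), microglial markers in 3 of 6 (0 to 33) and inhibitory neuron markers in 3 of 6 (0 to 146). Pvalb, Sst and Vip, which define classes of inhibitory neuron, had no exonic cluster, nor did Mog, P2ry12, Pecam1 and Kdr, and Tmem119 and Aif1, markers of microglia, had no cluster. Markers of cell types other than the labelled one are thus in the table, and their part in the values of the 6 genes was not tested.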

How the data were processed

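FLAG-Ago HITS-CLIP was done on 8 forebrain libraries, 5 Flag-Ago2 and 3 control. The submitters' processing notes name BWA and the build mm10. The BWA version, the cluster caller, the libraries that entered, the use of controls and any duplicate removal were not given in the sources used here. Each deposited value is the authors' count of reads in a cluster, pooled per the file headers: 0 columns belong to a library or group, so no test between groups was possible and none was run. The miRNA columns that the authors deposited count 6-base matches that touch a cluster by at least 1 base. For 27 families the sequence of 26 exonic clusters that lie in 1 annotated exon gave the deposited number in 702 of 702 pairs. The miR-124 family was read from the deposited column alone.

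A cluster counted as 3' UTR if that column named the gene, otherwise as CDS, then as 5' UTR, then as intron and last as antisense. Exonic means the first 3. Gene spans, exons and sequences came from GENCODE M21 on GRCm38, with the longest spliced basic coding transcript of each gene as reference, and 10542 of 10728 named genes matched it. Shares carry 95% Wilson intervals (scipy 1.17.1, pandas 2.3.3, Python 3.11.15). The assignment of regions and the seed search were tested on simulated data.

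The members and lists were chosen with earlier results of these data known. The naming rule takes the 6 genes, their exonic clusters, their 3 deepest intron clusters, and of each pathway list the 3 genes with the most exonic reads. Genes of a list with no exonic cluster may be named. Alternatives were minimum depths of 20 and 50 reads, other region orders, leaving out the deepest cluster, clusters of 1 gene alone, clusters without circRNA identifiers, longer seed matches and 3' UTR clusters alone.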

Additional observations from a re-analysis of the deposited data

Results flagged for a closer look

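Clusters that name no gene but lie inside the annotated span and on the strand of a member hold signal outside the values counted by name. They held 138 reads in Nlgn3, in 5 clusters all in the 3' UTR. Nrxn3 had 78 reads in 5 such clusters, between 88735279 and 88793460 on chromosome 12, none of them in an exon of its longest transcript. Nlgn2 had 52 reads in 3 clusters at its 5' end. The 12-read cluster lies in exon 1 of its longest transcript and is not in its exonic values. Those of 27 and 13 reads lie in no exon of that transcript and are not in its intronic values. Cntnap2 had 14 reads in 1 cluster of the 3' UTR. A Nrxn3 cluster of 16 reads among them held 2 matches each for miR-27 and miR-128.

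Antisense clusters also lie outside the sense values. They held 126 reads in Nrxn3, 69 in Cntnap2, 37 in Nrxn2 and 11 in Nlgn1. There is no control value to set beside any of these, and clusters under 10 reads are not listed, so each was picked out for holding reads at all.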

How the results depend on the processing

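Of 103 alternative values, 63 stayed within 1.5 times the reported one. The 500 clusters fell to 262 with at least 20 reads and to 38 with at least 50 reads. Exonic reads fell from 1008 to 606 without each gene's deepest exonic cluster. Intron-only clusters per 100 kb, over the summed span of the 6 genes, fell from 9.23 to 4.79 with at least 20 reads. The 60 family matches fell to 29 when at least 7 paired or A1 bases were asked of 27 families in clusters of 1 exon, and to 19 in 3' UTR clusters alone. Of the other values, for single genes and lists, 34 of 89 moved by more than 1.5 times and 32 of these were lower. The 2 that rose were the exonic clusters and reads of Nlgn3 when unnamed 3' UTR clusters were added, an alternative chosen after seeing the data, as was leaving out the clusters over Gm6352. With intron first in the order, the exonic clusters of Cntnap2 fell from 2 to 1. No paired analysis was possible because the table holds no value per library. The exonic values rest on 2 to 8 clusters per gene, and no minimum depth was tried for them.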
